A study of Mus musculus with 12 samples.

Results

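The 48 genes described here build and police the mitotic spindle: mitotic kinesins, centromere and kinetochore proteins, spindle checkpoint proteins, mitotic kinases, cyclins, and proteins of anaphase and cytokinesis. They were taken by gene symbol from the table of 55536 lines that holds the study's RNA levels, and each symbol stood in it once. All 48 passed the filter on low values (a mean value of at least 4 over all libraries), so they make up 48 of the 14407 genes tested, or 0.333%. The genes were sorted by role into 11 kinesin motors, 8 centromere and kinetochore proteins, 4 subunits of the Ndc80 complex, 6 checkpoint proteins and 4 subunits of the chromosomal passenger complex. The others were 4 mitotic kinases with their activator, 3 anaphase entry genes, 4 cyclins with Cdk1, 2 chromosome structure genes and 2 genes of the spindle midzone and cleavage furrow.

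The study sequenced polyadenylated RNA from B16.F10, a pigmented mouse melanoma cell line of the C57BL/6 strain, and asked how loss of the arginine methyltransferase PRMT7 changes the cells' RNA with and without interferon gamma (IFN-γ). There were 4 groups of 3 libraries. The first held cells transfected for 72 h with a small interfering RNA against Prmt7 (siPRMT7) and exposed to IFN-γ for the last 24 h, and the second held siPRMT7 cells without IFN-γ. The other 2 groups were the controls, transfected for 72 h with an RNA against luciferase (siLuc), a gene that mouse cells lack. The first of these had IFN-γ for the last 24 h and the other had none, and the knockdown acts on the RNA and leaves the gene as it is. The labels call the libraries of a group replicates without saying that they came from separate cultures, so a p-value here reflects how far the libraries of a group scatter, a scatter that may be technical.

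In mitosis, microtubules of the spindle attach to chromosomes at kinetochores, which are built on centromeric chromatin. Unattached kinetochores send a checkpoint signal that holds back the anaphase-promoting complex until every chromosome is attached. That complex, with Cdc20, then marks cyclin B and securin for destruction, which frees separase to cut cohesin and ends mitosis. The RNAs of most of these proteins are made late in the cell cycle, in G2 phase and mitosis, so their levels in a culture are widely read as a measure of dividing cells.

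Values are the authors' regularized log (rlog) values, which are read counts scaled for library size on a log2 scale, with low counts drawn toward the mean. A difference of -1 is thus a 2-fold lower level. The 12 libraries held 18.971 to 30.978 M reads each. Prmt7 itself lay between 6.08 and 6.36 in siPRMT7 libraries with IFN-γ and between 6.16 and 6.41 in siPRMT7 libraries, against 10.24 to 10.26 in siLuc libraries with IFN-γ and 10.16 to 10.34 in siLuc libraries. All 10 melanocyte markers were measured, and their summed level (log2) ran from 18.16 to 18.26 in siPRMT7 cells with IFN-γ and from 18.61 to 18.64 in siPRMT7 cells, against 18.67 to 18.75 in siLuc cells with IFN-γ and 18.93 to 18.99 in siLuc cells. Single melanocyte markers went both ways. Under knockdown with IFN-γ 7 were lower and 2 higher, with differences from -0.73 to 1.51. Without IFN-γ 6 were lower and 3 higher, from -0.87 to 1.33. By the same calls, defined below, 38.7% of all genes tested were lower and 35.9% higher with IFN-γ, and 38.9% and 36.3% without. Of 10 leukocyte markers only Cd68 and Csf1r passed the filter, and Ptprc, Cd3e, Itgam, Itgax, Adgre1 and Nkg7 were at or below 0 in every library. The knockdown differences of these 2 ran from 0.35 to 1.85 with IFN-γ and from 0.08 to 1.20 without (log2). The summed level of the 10 leukocyte markers ran from 9.16 to 9.22 in siPRMT7 cells with IFN-γ and from 8.83 to 9.06 in siPRMT7 cells. In siLuc cells it ran from 8.47 to 8.69 with IFN-γ and from 8.71 to 8.75 without. Of 10 markers of fibroblasts, endothelium and keratinocytes 4 passed, while Cdh5, Kdr and Dcn were below 0. Under knockdown with IFN-γ 2 of the 4 were lower and 2 higher, with differences from -0.59 to 1.62. Without IFN-γ 3 were lower and 1 higher, from -0.52 to 0.63, beside the shares of all genes given above. The sum of that list ran from 9.83 to 9.98 in siPRMT7 cells with IFN-γ and from 10.25 to 10.38 in siPRMT7 cells, against 9.17 to 9.24 in siLuc cells with IFN-γ and 9.97 to 10.19 in siLuc cells. Mitochondrially encoded genes made up 1.57% ± 0.034 of the summed level in siPRMT7 cells with IFN-γ and 2.69% ± 0.146 in siPRMT7 cells, against 1.115% ± 0.079 in siLuc cells with IFN-γ and 1.83% ± 0.349 in siLuc cells (SD, n = 3 each). What part these shifts have in the results below was not tested.

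Knockdown of Prmt7 lowered the RNA of 47 of the 48 mitotic genes, IFN-γ lowered the same 47, and the loss with both was larger than the sum of each alone on the log2 scale. The mean rlog value over the 48 genes was 7.95 ± 0.045 in siPRMT7 cells with IFN-γ, 9.68 ± 0.013 in siPRMT7 cells, 10.38 ± 0.015 in siLuc cells with IFN-γ and 11.05 ± 0.029 in siLuc cells (SD, n = 3 each). In 46 of the 48 genes the 4 group means stood in that order, low to high, and in 44 of these no library overlapped with those of the neighbouring group. How many of all genes tested stood in this order was not counted. In the single comparisons given below, 32.8% to 40% of all genes were lower with no overlap. In Cenpk and Spc24 the siPRMT7 and siLuc + IFN-γ libraries overlapped, in Kifc1 their means were reversed as well, and in Pttg1, the gene of securin, the whole order ran the other way. On the rlog scale, the 47 genes with both treatments were between 4.08-fold (Cenpk) and 18.6-fold (Kif11) lower than in untreated siLuc cells, with a median of 9.35-fold. In these bulk samples, fewer cells in G2 phase or mitosis and less of each RNA per cell cannot be told apart.

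**Figure D1:**
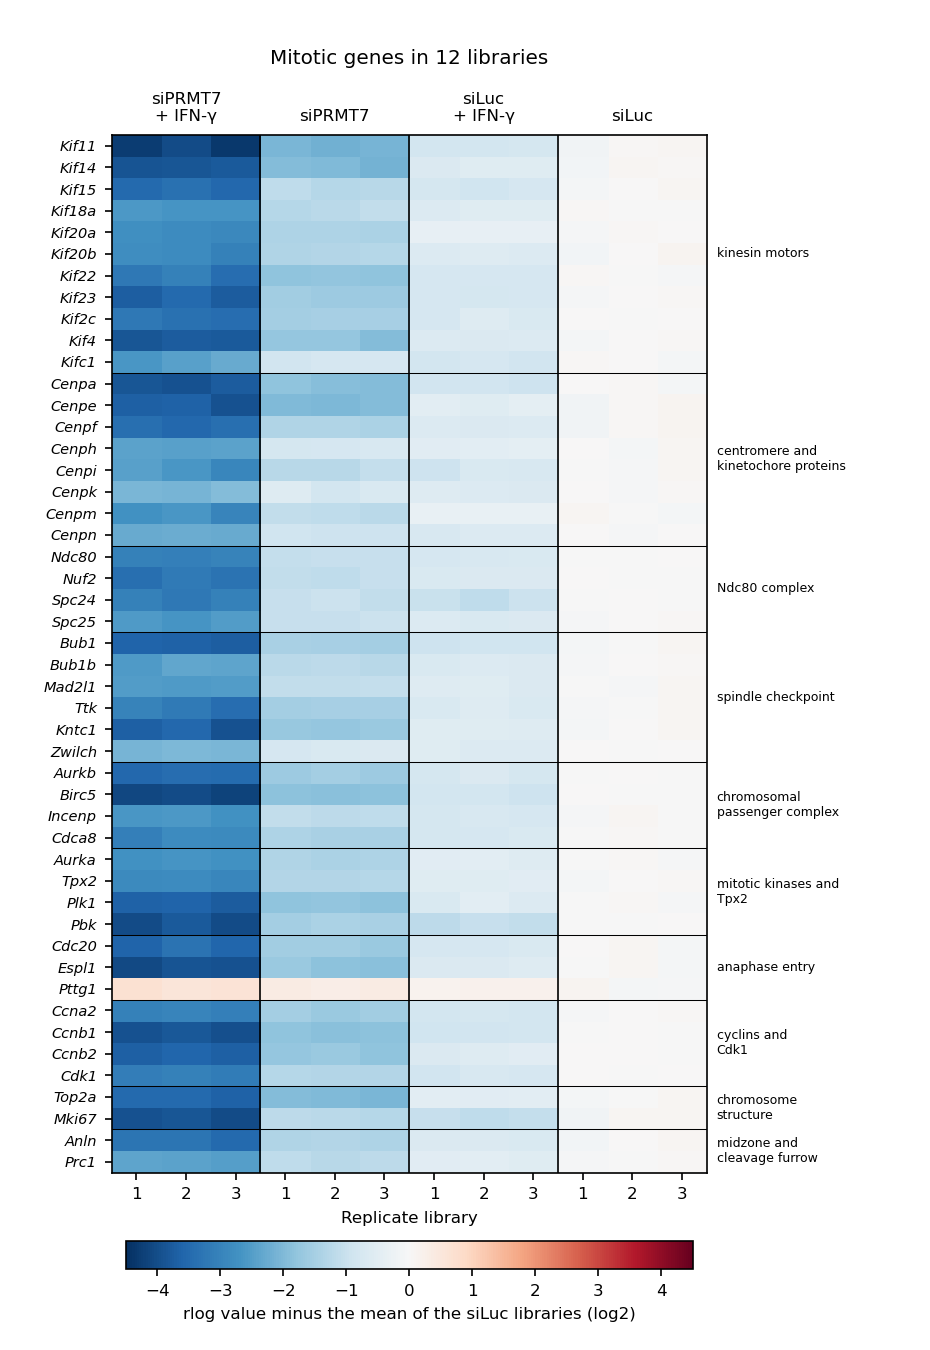
Each row of colour is 1 of the 48 mitotic genes and each column 1 of the 12 libraries, with colour giving the rlog value minus the mean of the 3 siLuc libraries (log2). Blue deepens from siLuc over siLuc + IFN-γ and siPRMT7 to siPRMT7 + IFN-γ in nearly every gene, the median of the genes in the siPRMT7 + IFN-γ libraries is between -3.35 and -3.17, and Pttg1 alone is red.

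Differences were tested with limma across all genes, and a gene was called at a Benjamini-Hochberg adjusted p under 0.05. With IFN-γ, siPRMT7 cells had 47 of the 48 genes lower and 1 higher than siLuc cells, where 38.7% of all genes tested were called lower. Without IFN-γ the count was again 47 lower and 1 higher, against 38.9% of all genes called lower. Calls were thus common over the whole table, so the sizes of the differences are given beside those of all genes. The median difference was -2.51 with IFN-γ and -1.39 without, against -0.01 and -0.01 over all genes tested. With IFN-γ all 47 were at least 2-fold lower and called, against 4.94% of all genes, and without IFN-γ 42 were, against 3.53%. With a 2-fold change as the null of the test, 47 stayed lower with IFN-γ (3.16% of all genes) and 35 without (1.83%). In the same 47 genes the siPRMT7 libraries all lay below the siLuc libraries, with IFN-γ (40% of all genes) and without (39.6%). Of the 50 genes with the lowest difference in the whole table, 23 were members with IFN-γ and 11 were members without it.

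**Figure D2:**
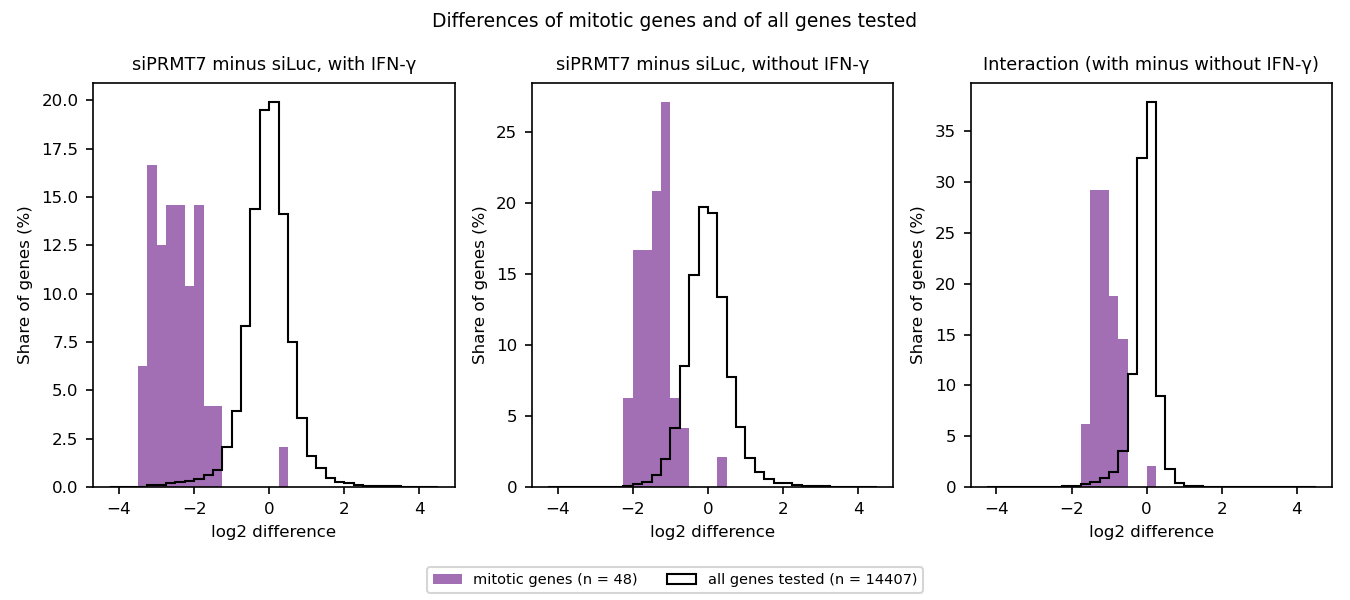
Histograms of the log2 difference for the 48 mitotic genes (filled) and the 14407 genes tested (line), as a share of genes in percent, for siPRMT7 against siLuc with IFN-γ, without IFN-γ, and for the interaction. The filled bars centre at -2.51, -1.39 and -1.11, left of the peak of all genes near 0, and a single gene, Pttg1, lies right of 0.

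The start sites of these genes share short sequence words that the choice of genes did not use. The window from 250 bases before to 50 after the start site was read from RefSeq for 40 of the 48 genes (43 windows, build GRCm38.p6). The words searched, on both strands, were the cell cycle genes homology region (CHR; TTTGAA or TTCGAA), a word of late cell cycle promoters bound by the MuvB proteins, and CCAAT, bound by the factor NF-Y. Beside them stood the E2F words TTCCCGC and TTGGCGC. Of the 40 genes, 26 (65%) had a CHR word within 50 bases of the start site, against 6.12% of all 27025 genes with a RefSeq window, 43.1% of other mitotic genes and 7.14% of DNA replication genes. CCAAT stood in the windows of 30 genes (75%), against 41.1% of all genes with a window, 64.6% of other mitotic genes and 60.7% of DNA replication genes. CHR with CCAAT stood in 25 (62.5%), against 8.61%, 43.1% and 17.9% in the same order. E2F words were found in 9 genes (22.5%), against 21.5% of other mitotic genes, 57.1% of DNA replication genes and 7.79% of all genes with a window. Of the genes tested, 10021 had a window. Their shares were 4.52% for CHR near the start, 43% for CCAAT, 6.97% for CHR with CCAAT and 14.1% for E2F.

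Windows of 9 genes that hold a CHR word between 50 bases before and 30 after the RefSeq start site show the layout. They are those with the largest knockdown difference with IFN-γ in each role that has such a gene, which leaves out the mitotic kinases. Shown are, with CHR and CCAAT words in capitals, the bases from 100 before to 30 after the start site. The strand is that of the gene, so CCAAT on the other strand reads ATTGG and CHR reads TTCAAA. The Pttg1 window is also shown, and it held none of the words. Other coding transcripts of Pttg1 start 221 to 270 bases upstream of the start site used. The window covers little or none of the sequence before those starts, so whether that sequence holds the words was not tested.
Kif11, chr19:37376282-37376411, plus strand: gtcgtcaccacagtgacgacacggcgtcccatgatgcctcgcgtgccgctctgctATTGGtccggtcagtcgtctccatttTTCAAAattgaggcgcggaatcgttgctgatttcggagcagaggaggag
Cenpa, chr5:30666786-30666915, plus strand: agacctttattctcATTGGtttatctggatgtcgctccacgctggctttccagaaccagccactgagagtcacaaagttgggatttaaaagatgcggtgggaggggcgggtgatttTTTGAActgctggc
Spc25, chr2:69206184-69206313, minus strand: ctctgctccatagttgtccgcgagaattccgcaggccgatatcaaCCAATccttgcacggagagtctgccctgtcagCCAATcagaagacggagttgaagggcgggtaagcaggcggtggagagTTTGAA
Kntc1, chr5:123749626-123749755, plus strand: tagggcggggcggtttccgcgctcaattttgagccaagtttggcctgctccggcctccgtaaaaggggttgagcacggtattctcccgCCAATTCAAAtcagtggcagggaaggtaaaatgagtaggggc
Cdca8, chr4:124936888-124937017, minus strand: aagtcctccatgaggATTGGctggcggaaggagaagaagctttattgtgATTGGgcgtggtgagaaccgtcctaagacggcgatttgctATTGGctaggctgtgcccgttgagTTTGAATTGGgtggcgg
Espl1, chr15:102296193-102296322, plus strand: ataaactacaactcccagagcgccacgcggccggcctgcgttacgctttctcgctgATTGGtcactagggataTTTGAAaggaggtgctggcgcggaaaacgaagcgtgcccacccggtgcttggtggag
Ccnb2, chr9:70421525-70421654, minus strand: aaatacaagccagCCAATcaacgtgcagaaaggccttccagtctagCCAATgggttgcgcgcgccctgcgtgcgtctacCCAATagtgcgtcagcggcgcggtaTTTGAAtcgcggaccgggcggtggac
Top2a, chr11:99024160-99024289, minus strand: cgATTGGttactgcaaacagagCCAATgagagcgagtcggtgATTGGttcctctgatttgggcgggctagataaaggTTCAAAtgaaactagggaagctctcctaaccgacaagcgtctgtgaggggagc
Anln, chr9:22389177-22389306, minus strand: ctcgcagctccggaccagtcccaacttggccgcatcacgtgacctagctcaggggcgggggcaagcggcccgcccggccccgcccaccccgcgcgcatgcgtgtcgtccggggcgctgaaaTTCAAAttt
Pttg1, chr11:43425952-43426081, minus strand: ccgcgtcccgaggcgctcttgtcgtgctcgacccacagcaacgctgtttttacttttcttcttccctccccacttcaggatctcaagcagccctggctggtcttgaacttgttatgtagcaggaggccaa

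In Kif11, Espl1 and Top2a the CHR word began 19, 27 and 23 bases before the start site, with CCAAT upstream of it. In Kntc1 and Cdca8 the CHR word overlapped a CCAAT word, which happened in 3 windows in all counting every kind of word. Anln had a CHR word 22 bases past the start site, a further one that begins at 29 and runs past the end of the stretch shown, and no CCAAT word. Of the 42 CHR words in all 43 windows 29 lay within 50 bases of the start site, and of 62 CCAAT words 36 lay between -150 and -26. Prc1 has 2 windows that overlap, so its words were counted in each. The 26 genes with a CHR word near the start had a median knockdown difference of -2.66 with IFN-γ and -1.46 without, and the 14 without one had -2.54 and -1.19. A match of letters is a description and says nothing of whether a factor was bound. In 37 of the 43 windows, the last 30 bases were found in a GENCODE transcript of the gene on the same strand. In Kif2c, Cenpm, Kif4 and 2 of the 3 windows of Cenpk the RefSeq start lay 328 to 3867 bases downstream of the 5′ end listed in the table, and in Cenpn it lay upstream. The windows of these genes thus belong to another start.

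**Figure D3:**
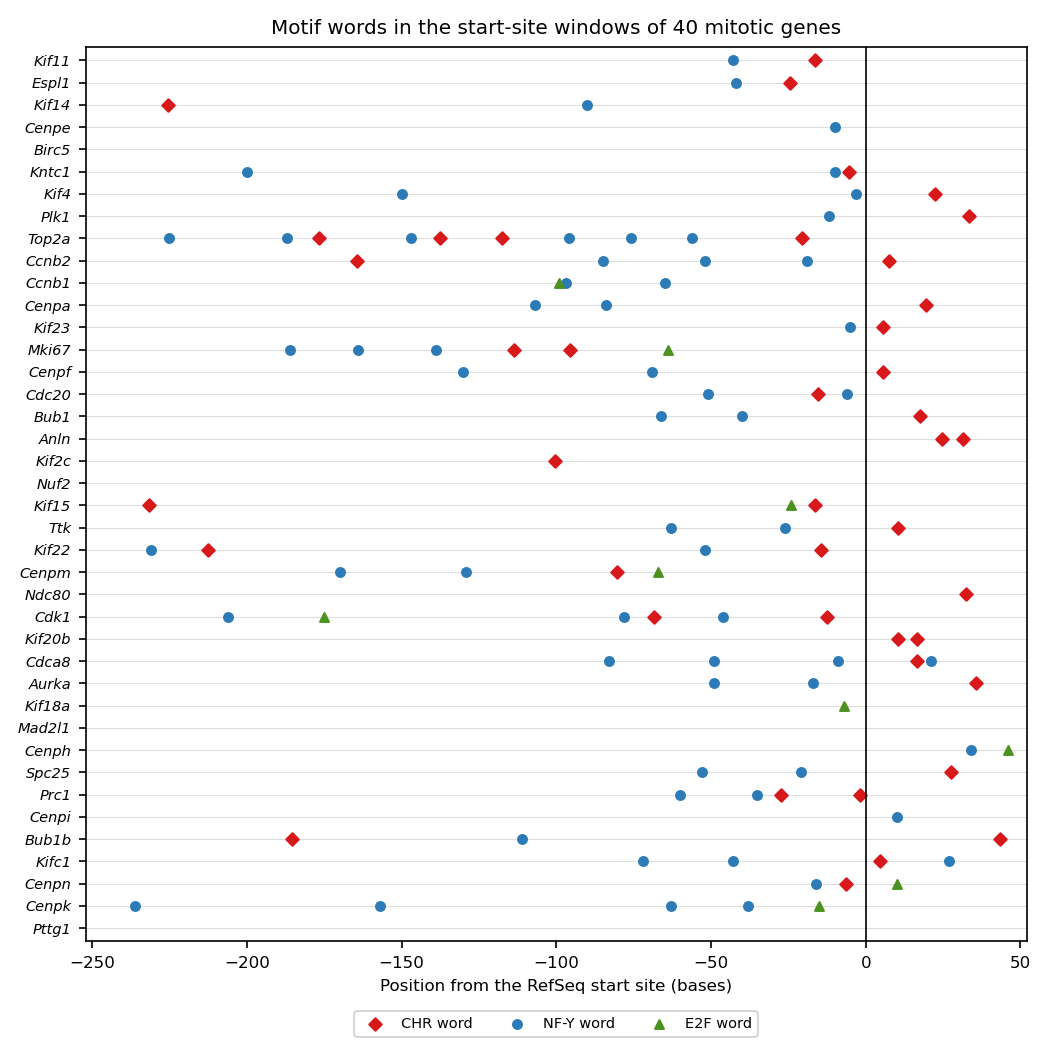
Position of CHR, NF-Y and E2F words (bases from the RefSeq start site, at 0) in the windows of 40 mitotic genes, with all windows of a gene on 1 line and genes ordered from the largest fall under knockdown with IFN-γ at the top to Pttg1 at the bottom. Red diamonds (CHR) gather within 50 bases of the start in 26 genes, blue circles (NF-Y) lie mostly upstream of it with a median of -63.5, and the rows of Birc5, Nuf2, Mad2l1 and Pttg1 are empty.

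Kinesin motors fell together. These proteins walk along microtubules or take them apart, and all 11 were lower in siPRMT7 cells, by 3.10- to 10.6-fold with IFN-γ (median difference -2.63) and by 1.73- to 4.26-fold without (median -1.51). Kif11 (position in the table, mm10: chr19:37376403-37421859), the motor that pushes spindle poles apart, had rlog values of 7.93, 8.18 and 7.88 in siPRMT7 cells with IFN-γ and 10.17, 10.07 and 10.13 in siPRMT7 cells, against 11.38, 11.39 and 11.42 in siLuc cells with IFN-γ and 12.07, 12.27 and 12.30 in siLuc cells. On the rlog scale it had the largest knockdown difference of the 48 genes, -3.40 ± 0.064 (SE) with IFN-γ and -2.09 ± 0.064 without, and its 4 groups did not overlap. With IFN-γ the log2 fold change in the authors' deposited table was -3.56 for Kif11 and lowest for Kif14, at -3.74. Kif14 (chr1:136467935-136531511), which acts at the midbody in cytokinesis, had 6.41, 6.44 and 6.50 in siPRMT7 cells with IFN-γ and 8.35, 8.31 and 8.17 in siPRMT7 cells, against 9.66, 9.73 and 9.74 in siLuc cells with IFN-γ and 10.17, 10.37 and 10.35 in siLuc cells. Its 4 groups did not overlap either, and it was 9.58-fold lower under knockdown with IFN-γ and 4.05-fold lower without. Kifc1 (chr17:33875668-33890633), a minus-end motor that gathers spindle poles, fell least among the motors. Its values were 7.40, 7.59 and 7.75 in siPRMT7 cells with IFN-γ and 9.18, 9.29 and 9.26 in siPRMT7 cells, against 9.20, 9.27 and 9.17 in siLuc cells with IFN-γ and 10.10, 10.04 and 9.96 in siLuc cells. The siPRMT7 and siLuc + IFN-γ libraries of Kifc1 overlapped, while the knockdown difference was -1.63 with IFN-γ and -0.79 without. The other 8 motors were Kif15, Kif18a, Kif20a, Kif20b, Kif22, Kif23, Kif2c and Kif4, with adjusted p of at most 1.47e-14 with IFN-γ and 2.51e-09 without over all 11 (limma).

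All 8 centromere and kinetochore genes were lower in siPRMT7 cells, by 2.65- to 9.47-fold with IFN-γ (median -2.18) and by 1.63- to 3.95-fold without (median -1.17). Cenpe (chr3:135212537-135273611), the kinesin that carries chromosomes to the spindle equator, had 8.19, 8.22 and 7.94 in siPRMT7 cells with IFN-γ and 9.88, 9.84 and 9.89 in siPRMT7 cells, against 11.38, 11.30 and 11.40 in siLuc cells with IFN-γ and 11.70, 11.90 and 11.96 in siLuc cells. Cenpa (chr5:30666777-30674830), the histone H3 variant that marks the centromere, had 7.06, 6.99 and 7.17 in siPRMT7 cells with IFN-γ and 9.09, 8.99 and 8.95 in siPRMT7 cells, against 10.04, 10.03 and 9.99 in siLuc cells with IFN-γ and 10.93, 10.98 and 10.83 in siLuc cells. In both genes every siPRMT7 library was below every siLuc library, and the knockdown differences with IFN-γ were -3.24 ± 0.066 for Cenpe and -2.95 ± 0.059 for Cenpa. Cenpk (chr13:104228611-104249617), of the inner kinetochore network that sits on centromeric chromatin, had 6.93, 6.87 and 7.04 in siPRMT7 cells with IFN-γ and 8.39, 8.16 and 8.29 in siPRMT7 cells, against 8.38, 8.36 and 8.31 in siLuc cells with IFN-γ and 8.98, 8.93 and 9.03 in siLuc cells. On the rlog scale it had the smallest fall of the 47 genes under knockdown with IFN-γ, -1.40 ± 0.073, against -0.70 ± 0.073 without. In the authors' deposited table the log2 fold change with IFN-γ was -1.62 for Cenpk and nearest to 0 for Zwilch, at -1.54. The others were Cenpf, Cenph, Cenpi, Cenpm and Cenpn.

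The 4 subunits of the Ndc80 complex, the rod that grips microtubules at the outer kinetochore, moved by nearly the same amount without IFN-γ. Their knockdown differences lay between -1.09 and -1.01 without IFN-γ, and between -2.64 and -1.93 with it. Ndc80 (chr17:71496100-71526857), at the microtubule end of the rod, had 7.10, 7.03 and 7.13 in siPRMT7 cells with IFN-γ and 9.05, 9.09 and 9.10 in siPRMT7 cells, against 9.39, 9.42 and 9.45 in siLuc cells with IFN-γ and 10.11, 10.11 and 10.15 in siLuc cells. Its partner Nuf2 (chr1:169497934-169531464) had 6.94, 7.17 and 7.03 in siPRMT7 cells with IFN-γ and 9.24, 9.21 and 9.30 in siPRMT7 cells, against 9.66, 9.69 and 9.71 in siLuc cells with IFN-γ and 10.37, 10.33 and 10.34 in siLuc cells. On the rlog scale the interaction was -1.55 for Nuf2 and -1.01 for Spc24, and as a difference of 2 log2 fold changes in the authors' deposited table it was -1.79 for Nuf2 and -1.81 for Spc24. At the kinetochore end of the rod, Spc24 (chr9:21755442-21760303) had 5.45, 5.29 and 5.45 in siPRMT7 cells with IFN-γ and 7.44, 7.52 and 7.37 in siPRMT7 cells, against 7.49, 7.36 and 7.51 in siLuc cells with IFN-γ and 8.48, 8.49 and 8.48 in siLuc cells. Spc25 (chr2:69193895-69206135), which pairs with Spc24, had 7.98, 7.87 and 8.02 in siPRMT7 cells with IFN-γ and 9.50, 9.48 and 9.57 in siPRMT7 cells, against 9.93, 9.86 and 9.87 in siLuc cells with IFN-γ and 10.48, 10.53 and 10.58 in siLuc cells. In all 4 genes the siPRMT7 + IFN-γ libraries lay below all others. Spc24 was the one whose siPRMT7 and siLuc + IFN-γ libraries overlapped, with means of 7.44 ± 0.077 and 7.45 ± 0.084 (SD, n = 3 each).

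Spindle checkpoint genes were all lower as well, 6 of 6 in each comparison, with a median difference of -2.25 with IFN-γ and -1.35 without. Kntc1 (chr5:123749726-123821593), a subunit of the RZZ complex that brings dynein and checkpoint proteins to kinetochores, had 7.36, 7.51 and 7.12 in siPRMT7 cells with IFN-γ and 9.35, 9.31 and 9.36 in siPRMT7 cells, against 10.50, 10.50 and 10.47 in siLuc cells with IFN-γ and 10.94, 11.05 and 11.13 in siLuc cells. Bub1 (chr2:127801122-127831865), a kinase that marks the inner centromere, had 8.38, 8.33 and 8.28 in siPRMT7 cells with IFN-γ and 10.52, 10.49 and 10.47 in siPRMT7 cells, against 11.05, 11.08 and 11.07 in siLuc cells with IFN-γ and 11.91, 11.96 and 12.08 in siLuc cells. With IFN-γ, Kntc1 was 8.94-fold and Bub1 6.67-fold lower in siPRMT7 cells than in siLuc cells. Zwilch (chr9:64137144-64173104), another RZZ subunit, fell least, with 8.32, 8.39 and 8.33 in siPRMT7 cells with IFN-γ and 9.65, 9.72 and 9.73 in siPRMT7 cells, against 9.84, 9.77 and 9.79 in siLuc cells with IFN-γ and 10.40, 10.38 and 10.41 in siLuc cells. The knockdown difference was -3.16 for Kntc1 and -1.45 for Zwilch with IFN-γ, and -1.70 and -0.70 without. Zw10, the remaining RZZ subunit, which also works at the Golgi, was not a member and had -0.59 ± 0.034 and -0.79 ± 0.034. Of these 3 RZZ genes, Zw10 alone had a smaller difference with IFN-γ than without (interaction 0.20 ± 0.049, adjusted p = 0.00309, limma). The other checkpoint members were Bub1b, Mad2l1 and Ttk. Their partner Bub3, which also serves outside mitosis, had -0.50 ± 0.033 with IFN-γ and -0.46 ± 0.033 without.

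The chromosomal passenger complex corrects faulty attachments, and its 4 subunits were lower by 3.74- to 9.44-fold with IFN-γ and by 2.22- to 3.62-fold without. Birc5 (chr11:117849319-117855743), survivin, had 7.54, 7.64 and 7.49 in siPRMT7 cells with IFN-γ and 9.81, 9.77 and 9.79 in siPRMT7 cells, against 10.82, 10.84 and 10.73 in siLuc cells with IFN-γ and 11.67, 11.65 and 11.63 in siLuc cells. Aurkb (chr11:69045652-69051664), the kinase of the complex, had 7.83, 7.95 and 7.92 in siPRMT7 cells with IFN-γ and 9.75, 9.85 and 9.74 in siPRMT7 cells, against 10.58, 10.74 and 10.60 in siLuc cells with IFN-γ and 11.37, 11.40 and 11.35 in siLuc cells. Birc5 had the largest difference of the 4 with IFN-γ, -3.24 ± 0.047, and Aurkb followed with -2.74 ± 0.051. Incenp (chr19:9872296-9899551), the scaffold, had 9.13, 9.17 and 9.03 in siPRMT7 cells with IFN-γ and 10.64, 10.58 and 10.60 in siPRMT7 cells, against 10.99, 11.03 and 11.02 in siLuc cells with IFN-γ and 11.69, 11.86 and 11.73 in siLuc cells. Cdca8 (chr4:124918465-124936917), borealin, had 7.92, 8.17 and 8.13 in siPRMT7 cells with IFN-γ and 9.62, 9.55 and 9.54 in siPRMT7 cells, against 10.21, 10.26 and 10.31 in siLuc cells with IFN-γ and 10.98, 11.05 and 10.98 in siLuc cells. The 4 groups of each of these genes were apart, and Incenp and Cdca8 had the smaller knockdown differences, -1.90 and -2.19 with IFN-γ.

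Mitotic kinases were lower by 4.54- to 8.40-fold with IFN-γ and by 2.48- to 3.50-fold without, counting Tpx2. Plk1 (chr7:122159439-122169873), which drives centrosome maturation and mitotic entry, had 8.19, 8.24 and 8.11 in siPRMT7 cells with IFN-γ and 10.03, 10.06 and 10.01 in siPRMT7 cells, against 11.17, 11.35 and 11.24 in siLuc cells with IFN-γ and 11.83, 11.91 and 11.78 in siLuc cells. Aurka (chr2:172356190-172370535), the spindle pole kinase, had 8.72, 8.78 and 8.70 in siPRMT7 cells with IFN-γ and 10.07, 10.03 and 10.06 in siPRMT7 cells, against 10.92, 10.95 and 10.88 in siLuc cells with IFN-γ and 11.44, 11.49 and 11.40 in siLuc cells. Its activator Tpx2 (chr2:152847964-152895321) had 9.65, 9.67 and 9.58 in siPRMT7 cells with IFN-γ and 11.17, 11.19 and 11.21 in siPRMT7 cells, against 11.95, 11.96 and 11.98 in siLuc cells with IFN-γ and 12.41, 12.53 and 12.55 in siLuc cells. Aurka and Tpx2 moved by similar amounts, -2.18 and -2.33 under knockdown with IFN-γ and -1.39 and -1.31 without, and Plk1 by more, -3.07 and -1.81. Pbk (chr14:65805837-65817822), a kinase active in mitosis, had 7.13, 7.37 and 7.11 in siPRMT7 cells with IFN-γ and 9.64, 9.72 and 9.68 in siPRMT7 cells, against 9.99, 10.11 and 10.05 in siLuc cells with IFN-γ and 11.13, 11.15 and 11.19 in siLuc cells. The IFN-γ difference of Pbk in siLuc cells was -1.10, the largest of the 48 genes there on the rlog scale, and in the authors' deposited table it was -1.10 for Pbk and -1.11 for Spc24. A pseudogene (Gm12387) is 96.2% identical to Pbk over 50% of its transcript, so reads could be shared with it. The pseudogene was not among the genes tested.

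Anaphase entry genes parted. Cdc20 (chr4:118432901-118437352), which activates the anaphase-promoting complex, had 7.48, 7.76 and 7.52 in siPRMT7 cells with IFN-γ and 9.53, 9.52 and 9.42 in siPRMT7 cells, against 10.34, 10.35 and 10.40 in siLuc cells with IFN-γ and 11.10, 11.16 and 10.99 in siLuc cells. Espl1 (chr15:102296266-102324357), separase, the protease that cuts cohesin, had 7.30, 7.48 and 7.44 in siPRMT7 cells with IFN-γ and 9.68, 9.50 and 9.47 in siPRMT7 cells, against 10.71, 10.71 and 10.76 in siLuc cells with IFN-γ and 11.34, 11.45 and 11.28 in siLuc cells. Under knockdown Espl1 was 9.99-fold lower with IFN-γ and 3.49-fold lower without, and Cdc20 6.86-fold and 3.02-fold lower. Pttg1 (chr11:43420264-43425981, minus strand), securin, which binds and inhibits separase, had 9.29, 9.15 and 9.24 in siPRMT7 cells with IFN-γ and 8.97, 8.92 and 8.99 in siPRMT7 cells, against 8.76, 8.81 and 8.80 in siLuc cells with IFN-γ and 8.71, 8.53 and 8.57 in siLuc cells. Every siPRMT7 library of Pttg1 lay above every siLuc library, with or without IFN-γ. It was called higher under knockdown with IFN-γ (0.44 ± 0.060, adjusted p = 1.27e-06) and without (0.36 ± 0.060, adjusted p = 1.8e-05), where 35.9% and 36.3% of all genes were called higher (limma). The authors' deposited table gave log2 fold changes of 0.46 and 0.37 for Pttg1 in these comparisons, with the same direction. The transcript listed for Pttg1 in the table has 1674 exon bases, of which 637 (38.1%) lie in none of the 6 other coding transcripts of the gene, which are 476 to 948 bases long. Which transcripts gave the reads was not tested, and starts of other transcripts lie up to 270 bases upstream of the start site used for the window above.

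**Figure D4:**
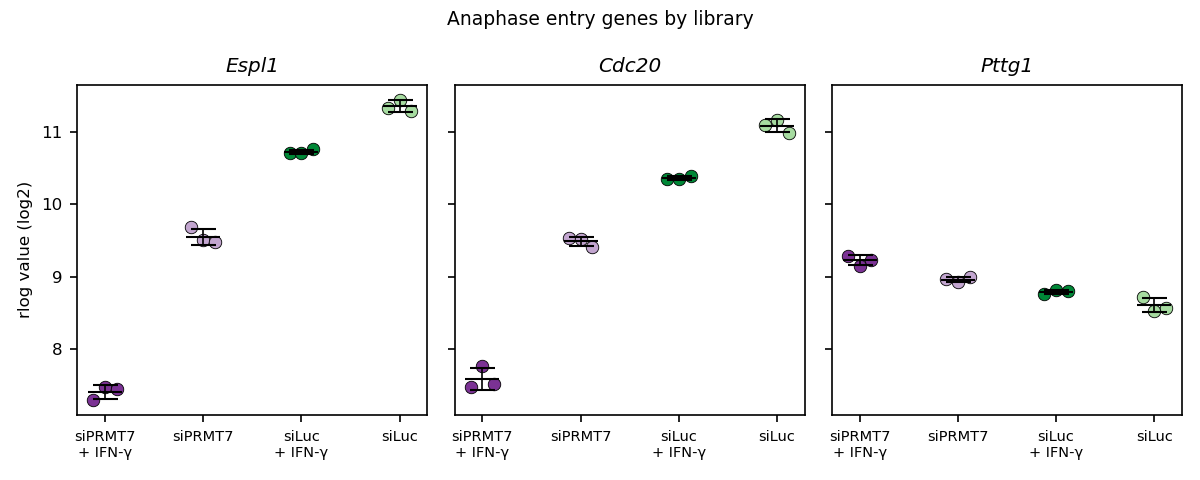
rlog values (log2) of Espl1, Cdc20 and Pttg1 in each of the 12 libraries, with the mean and SD of the 3 libraries of a group. Espl1 and Cdc20 lie between 7.30 and 7.76 in siPRMT7 + IFN-γ and between 10.99 and 11.45 in siLuc, and Pttg1 runs the other way, with means of 9.23, 8.96, 8.79 and 8.60.

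Cyclins and Cdk1, which drive entry into mitosis, were lower by 4.63- to 8.25-fold with IFN-γ and by 2.49- to 3.60-fold without. Ccnb1 (chr13:100778650-100786570), cyclin B1, the main partner of Cdk1 at mitotic entry, had 7.13, 7.23 and 7.08 in siPRMT7 cells with IFN-γ and 9.23, 9.14 and 9.19 in siPRMT7 cells, against 10.16, 10.18 and 10.21 in siLuc cells with IFN-γ and 11.03, 11.04 and 11.03 in siLuc cells. Ccnb2 (chr9:70407692-70421547), cyclin B2, had 7.55, 7.66 and 7.56 in siPRMT7 cells with IFN-γ and 9.47, 9.54 and 9.41 in siPRMT7 cells, against 10.58, 10.63 and 10.70 in siLuc cells with IFN-γ and 11.24, 11.22 and 11.20 in siLuc cells. Both cyclin B genes had nearly the same knockdown difference, -3.04 and -3.04 with IFN-γ and -1.85 and -1.75 without. Ccna2 (chr3:36564865-36572150), cyclin A2, which acts from S phase on, had 9.30, 9.35 and 9.26 in siPRMT7 cells with IFN-γ and 10.82, 10.67 and 10.77 in siPRMT7 cells, against 11.51, 11.54 and 11.51 in siLuc cells with IFN-γ and 12.28, 12.34 and 12.39 in siLuc cells. Cdk1 (chr10:69335146-69352938) itself had 9.44, 9.52 and 9.43 in siPRMT7 cells with IFN-γ and 11.26, 11.24 and 11.24 in siPRMT7 cells, against 11.70, 11.84 and 11.80 in siLuc cells with IFN-γ and 12.57, 12.53 and 12.58 in siLuc cells. These 2 fell less under knockdown with IFN-γ, -2.21 ± 0.042 and -2.32 ± 0.040. Ccnb1 has pseudogenes of 97.5% to 99.2% identity over 50.4% to 51.7% of its transcript (Ccnb1-ps, Gm12856, Gm8416), none of which was among the genes tested.

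Both chromosome structure genes had large differences of unlike pattern. Top2a (chr11:98992943-99024189), the topoisomerase that untangles sister DNA, had 9.92, 9.92 and 9.79 in siPRMT7 cells with IFN-γ and 11.48, 11.42 and 11.37 in siPRMT7 cells, against 12.95, 12.93 and 12.96 in siLuc cells with IFN-γ and 13.33, 13.42 and 13.52 in siLuc cells. Mki67 (chr7:135689784-135716361), which coats mitotic chromosomes and is the common marker of dividing cells, had 10.32, 10.40 and 10.23 in siPRMT7 cells with IFN-γ and 13.08, 13.05 and 12.98 in siPRMT7 cells, against 13.22, 13.11 and 13.17 in siLuc cells with IFN-γ and 14.09, 14.32 and 14.32 in siLuc cells. Knockdown with IFN-γ lowered them alike, by 3.07 and 2.85 on the log2 scale, but without IFN-γ the difference was -2.00 for Top2a and -1.21 for Mki67. On the rlog scale Mki67 had the largest interaction of the 48 genes, -1.64 ± 0.076, with an adjusted p of 4.49e-13 (limma). As a difference of 2 log2 fold changes in the authors' deposited table, it was -1.67 for Mki67 and lowest for Cenpm, at -1.91. At the midzone, Anln (chr9:22332012-22389188), anillin, the scaffold of the cleavage furrow, had 8.91, 8.89 and 8.68 in siPRMT7 cells with IFN-γ and 10.84, 10.87 and 10.79 in siPRMT7 cells, against 11.52, 11.51 and 11.50 in siLuc cells with IFN-γ and 12.06, 12.21 and 12.27 in siLuc cells. Prc1 (chr7:80294505-80316254), which bundles midzone microtubules, had 10.08, 10.02 and 9.95 in siPRMT7 cells with IFN-γ and 11.31, 11.21 and 11.26 in siPRMT7 cells, against 11.92, 11.98 and 11.89 in siLuc cells with IFN-γ and 12.40, 12.44 and 12.49 in siLuc cells. Their knockdown differences were -2.69 and -1.91 with IFN-γ, and their groups did not overlap.

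**Figure D5:**
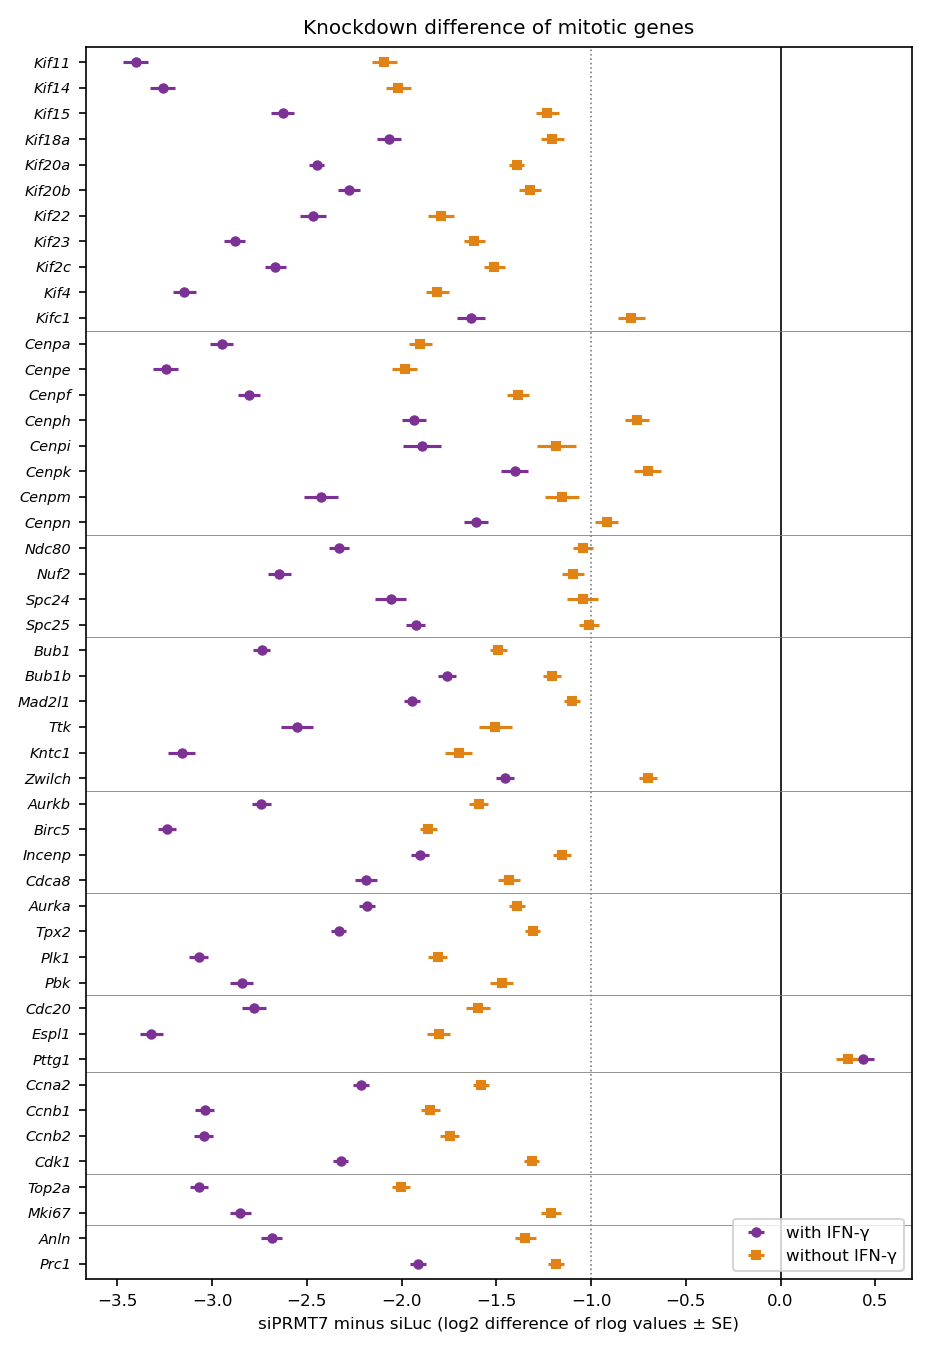
Knockdown difference (siPRMT7 minus siLuc, log2, ± SE) of each mitotic gene with IFN-γ (purple circles) and without (orange squares); the dotted line marks a 2-fold lower level. Circles lie left of squares in all genes but Pttg1, from -3.40 (Kif11) to -1.40 (Cenpk) against -2.09 to -0.70.

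IFN-γ lowered these genes too. In siLuc cells its difference was smaller than the knockdown difference without IFN-γ in 46 of the 47, and in Kifc1 the 2 were -0.82 and -0.79. In siPRMT7 cells 47 of 48 were lower with IFN-γ than without, against 28.6% of all genes called lower, and in siLuc cells 47 were, against 32.7%. The median IFN-γ difference was -1.77 in siPRMT7 cells and -0.65 in siLuc cells, against 0.00 and -0.02 over all genes. In siPRMT7 cells all 47 were at least 2-fold lower and called (background 2.69%), from 6.59-fold for Mki67 to 2.32-fold on the rlog scale. In siLuc cells only Spc24, Pbk and Mki67 were (background 1.01%), and the 47 ranged from 2.15-fold to 1.27-fold lower. Against a null of 2-fold, 47 held in siPRMT7 cells (background 1.76%) and 0 in siLuc cells (background 0.375%). Libraries with and without IFN-γ did not overlap in any of the 47, in siPRMT7 cells (32.8% of all genes) or in siLuc cells (33.4%). Of the 50 lowest genes of the table, 17 were members for IFN-γ in siPRMT7 cells and 0 in siLuc cells. Pttg1 was higher with IFN-γ, by 0.27 ± 0.060 in siPRMT7 cells (adjusted p = 0.000701) and by 0.19 ± 0.060 in siLuc cells (adjusted p = 0.0111; 28% of all genes were called higher in each, limma). For the call in siLuc cells the adjusted p was 0.0616 in the authors' deposited table, and it missed the threshold under 3 other settings given in the closing section.

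The interaction asks whether the knockdown difference with IFN-γ differs from that without, which equals the difference of the IFN-γ responses. It was called lower for 47 of the 48 genes, against 16.5% of all genes, with a median of -1.11 against 0.00 over all genes. It was at least a further 2-fold in 31 genes (background 1.94%), and 12 differed by more than 2-fold when that size was set as the null (background 0.798%): Kif15, Kif4, Cenpf, Nuf2, Bub1, Kntc1, Birc5, Pbk, Espl1, Ccnb2, Mki67 and Anln. Among all genes tested, 0 of the 50 with the lowest interaction were members, and 5 of the 100 lowest were. The smallest interaction among the 47 was -0.55, and Pttg1 had 0.08 ± 0.085 (adjusted p = 0.515). Across the 47 genes the knockdown differences with and without IFN-γ, which share no library, had a Pearson r of 0.879 and a Spearman rho of 0.871. Over all genes tested these were 0.833 and 0.854. The IFN-γ differences in siPRMT7 and siLuc cells were less alike across the 47 genes (r = 0.591, rho = 0.517) than over all genes (0.883 and 0.733). Genes are not independent replicates, and the span of values differs between the sets.

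Other genes of mitosis, from a list of 73 outside the 48, moved the same way by less. With IFN-γ 69 were lower and 2 higher under knockdown (median -1.56), against 38.7% and 35.9% of all genes tested. Without IFN-γ 68 of the 73 were lower and 2 higher (median -0.99), against 38.9% and 36.3%. Cdca3, which triggers destruction of the Wee1 kinase in mitosis, had the lowest difference, -3.14 ± 0.051, and Ube2c, the ubiquitin-conjugating enzyme of the anaphase-promoting complex, followed with -3.10 ± 0.065 (log2, with IFN-γ). The 2 that were higher under knockdown with IFN-γ were kinetochore genes, Mis12 by 0.30 ± 0.043 and Cenpt by 0.20 ± 0.063. Those higher under knockdown without IFN-γ were Mis12, by 0.20 ± 0.043, and Gtse1, a microtubule-binding protein, by 0.19 ± 0.039. Under knockdown with IFN-γ Gtse1 was called lower, at -0.09 ± 0.039 (adjusted p = 0.0433, limma), and its interaction was -0.28 ± 0.055. The interaction was called lower for 51 of the 73 and higher for 3 (median -0.59), against 16.5% and 14.1% of all genes. DNA replication genes, a list of 36, were lower under knockdown in 35 with IFN-γ (median -1.85) and in 35 without (median -1.06), and 0 were higher. The lowest differences with IFN-γ were those of Mcm5, a subunit of the replicative helicase, -2.74 ± 0.044, and Pole, the leading-strand polymerase, -2.62 ± 0.063. For IFN-γ in siLuc cells the median of the replication genes was -0.71, against -0.65 for the 48 mitotic genes. Differences between these lists were not tested.

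Transcriptional regulators of mitotic genes moved in both directions. Of 26, 17 were lower and 7 higher under knockdown with IFN-γ (median -0.32), against 38.7% and 35.9% of all genes tested. Without IFN-γ 18 were lower and 4 higher (median -0.28), against 38.9% and 36.3%. Calls in both directions were thus common over all genes as well. Foxm1, an activator of late cell cycle genes, had means of 9.56 ± 0.158 in siPRMT7 cells with IFN-γ and 11.42 ± 0.061 in siPRMT7 cells, against 12.20 ± 0.041 in siLuc cells with IFN-γ and 12.61 ± 0.067 in siLuc cells (SD, n = 3 each). Its knockdown difference was -2.64 ± 0.057 with IFN-γ and -1.19 ± 0.057 without. E2f8, a repressor of the E2F family, had -2.49 ± 0.066 and -0.95 ± 0.066. Cdkn1a, the p21 inhibitor of cyclin-dependent kinases, had means of 14.31 ± 0.024 in siPRMT7 cells with IFN-γ and 14.24 ± 0.017 in siPRMT7 cells, against 12.97 ± 0.063 in siLuc cells with IFN-γ and 13.20 ± 0.032 in siLuc cells. It rose by 1.34 ± 0.038 under knockdown with IFN-γ and by 1.04 ± 0.038 without. E2f5, a pocket protein-bound E2F factor, rose by 0.93 ± 0.072 and 0.79 ± 0.072. Cdkn1a thus differed with knockdown in the opposite direction to the 47 mitotic genes, and its IFN-γ difference in siLuc cells was -0.23 ± 0.038.

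The authors' deposited table lists 47 of the 48 genes lower and Pttg1 higher in siPRMT7 cells at an adjusted p under 0.05, with and without IFN-γ. Its log2 fold changes run from -3.74 to 0.46 with IFN-γ (median -2.85) and from -2.14 to 0.37 without (median -1.42). The share of all genes called in it is not given here. By limma, 38.7% of all genes tested were called lower with IFN-γ and 38.9% without. Without knowledge of the strand used in counting, reads of genes that overlap on opposite strands may be mixed. This touches 11 of the 48, most of all Kif20a, where 29.3% of exon bases overlap Cdc23, then Kif4 (15.1%, Pdzd11), Ccna2 (12.5%, Exosc9) and Prc1 (11.1%, Rccd1). The 48 genes lie on 18 chromosomes, with at most 7 on 1 of them.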

How the data were processed

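A stranded mRNA kit and single-end sequencing were used, per the labels' protocols. DESeq2 1.26.0, HOMER 4.11.1, STAR 2.7.1a and Trimmomatic 0.39 are named with mm10 (GRCm38) per the submitters' processing notes; their roles and the use of strand in counting are not given in the sources used here. The deposited table holds rlog values (log2) per library, per the file headers, and the authors' log2 fold changes with p-values and adjusted p-values for each pair of groups. Library totals, from the column headers, ran from 18.971 to 30.978 M reads. The read counts are not used here, so weakly expressed genes, whose rlog values are drawn toward the mean, have understated differences and spread.

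The test took genes whose mean rlog value was 4 or more. Of 115 symbols with several lines only the highest was used, which gave 14407 genes. Limma 3.58.1 in R 4.3.3 was fitted to group means over all 12 libraries, with moderated variances and a mean-variance trend, 2-sided, with Benjamini-Hochberg adjustment over all genes and a threshold of 0.05. Residual degrees of freedom were 8 and prior ones 12.4, the median residual SD was 0.0751, and the fit was tested on simulated data. Alternatives were another filter, no filter, quantile normalization, median centring, no variance trend, only the groups compared, a replicate block, a null of a 2-fold change, the authors' p-values and leaving out each library.

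The 48 genes and all lists were chosen with earlier results of these data known. Printed with a value per library were, in each role, the 2 genes with the largest knockdown difference with IFN-γ and the 1 with the smallest, every gene of a role of 4 or fewer, every member that was not lower, and the extremes of the interaction. Of the other lists, the 2 largest falls and the 2 largest rises among called genes were named, and Zw10, Bub3, Gtse1 and the genes named from the authors' deposited table were chosen after their values were seen. Start-site windows are RefSeq's (GRCm38.p6), and windows of Aurkb, Zwilch, Ccna2, Incenp, Spc24, Pbk, Kif20a and Tpx2 were not used here. Gene overlaps and transcripts come from GENCODE M21, and near-identical copies (at least 95% over at least 200 bases) from minimap2 2.31-r1302. Counts of words used Python 3.11.15. No IFN-γ dose is printed, since the labels give it in differing units.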

Additional observations from a re-analysis of the deposited data

Results flagged for a closer look

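In 47 of the 48 mitotic genes the knockdown effect differed between cells with and without IFN-γ, by the interaction term of the limma fit (Benjamini-Hochberg adjusted p of at most 0.000652), where 16.5% of all genes tested were called lower. Each value below is the knockdown difference with IFN-γ minus that without (log2), and Pttg1 was the 1 gene not called.

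Among the kinesin motors the value was -1.31 for Kif11, -1.24 for Kif14, -1.40 for Kif15, -0.86 for Kif18a, -1.06 for Kif20a and -0.96 for Kif20b. The further values were -0.68 for Kif22, -1.26 for Kif23, -1.16 for Kif2c, -1.34 for Kif4 and -0.85 for Kifc1. Centromere and kinetochore genes had values of -1.05 for Cenpa, -1.26 for Cenpe, -1.42 for Cenpf, -1.18 for Cenph, -0.71 for Cenpi and -0.70 for Cenpk. Beside these stood -1.27 for Cenpm and -0.69 for Cenpn. In the Ndc80 complex the value was -1.29 for Ndc80, -1.55 for Nuf2, -1.01 for Spc24 and -0.91 for Spc25. For checkpoint genes it was -1.25 for Bub1, -0.55 for Bub1b, -0.84 for Mad2l1, -1.05 for Ttk, -1.46 for Kntc1 and -0.75 for Zwilch. Passenger complex subunits had -1.15 for Aurkb, -1.38 for Birc5, -0.75 for Incenp and -0.75 for Cdca8. Mitotic kinases and their activator had -0.79 for Aurka, -1.02 for Tpx2, -1.26 for Plk1 and -1.37 for Pbk. Of the anaphase entry genes, it was -1.18 for Cdc20 and -1.52 for Espl1. Cyclins and Cdk1 had -0.63 for Ccna2, -1.19 for Ccnb1, -1.30 for Ccnb2 and -1.01 for Cdk1. For chromosome structure genes the value was -1.07 for Top2a and -1.64 for Mki67. At the midzone and furrow it was -1.34 for Anln and -0.73 for Prc1.

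All 47 values were negative. Melanocyte marker sums, the mitochondrial share and library size, which also differed between libraries, are given in the report, and their part was not tested.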

How the results depend on the processing

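The count of mitotic genes called lower was 47 in each of the 5 comparisons under every alternative but the null of a 2-fold change (2 alternatives, the authors' adjusted p and a fit of only the groups compared, give no interaction). Under that null it was 47 for knockdown with IFN-γ, 35 without, 47 for IFN-γ in siPRMT7 cells, 0 for IFN-γ in siLuc cells and 12 for the interaction. The count at an adjusted p under 0.05 against no change, by limma, stayed 47 for IFN-γ in siLuc cells, so its fall to 0 reflects the stricter null. The genes called over the whole table under it numbered 771, 628, 673, 559 and 143 in the same order, against 10757, 10835, 8156, 8737 and 4415.

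Leaving out 1 library at a time kept the count of mitotic genes at 47 to 47 in each comparison. The count over all genes ran from 10314 to 10923 for knockdown with IFN-γ, from 10330 to 10825 without, from 7484 to 8487 for IFN-γ in siPRMT7 cells, from 8078 to 8725 in siLuc cells, and from 3825 to 4580 for the interaction. With the replicate number as a block 47 genes were called lower in each comparison. The sample titles call the number a replicate and the column headers call it a series (Serie). Neither says whether libraries of the same number in different groups were prepared together. Deviations of same-numbered libraries correlated at -0.124 to 0.224, and 5 of 18 pairs were above 0.1, so the number was not taken as a pairing. That 10 of 12 libraries correlated best with their own number is a hint of a pairing, as the shared series number may be, and the labels do not settle it.

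Of 3296 single-gene values (160 results, 21 settings), 3228 kept their direction and side of the threshold, 68 lost the call and 0 reversed. Apart from the 2-fold null, the losses were all of Pttg1 for IFN-γ in siLuc cells, called at 0.19 (adjusted p = 0.0111). It was 0.085 (adjusted p = 0.209) after quantile normalization, 0.13 (adjusted p = 0.0571) after median centring and 0.15 (adjusted p = 0.0587) without siLuc replicate 2, and adjusted p was 0.0616 in the authors' deposited table. Replicates of 3 limit the spread estimate, and levels per cell were not measured.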

Other observations

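Condensin and cohesin genes, which compact and hold together sister chromatids, parted in size. Of 19 in the list, 16 were lower and 3 higher under knockdown with IFN-γ (median -0.70), against 38.7% and 35.9% of all genes. Without IFN-γ 17 of the 19 were lower and 1 higher (median -0.68), against 38.9% and 36.3%. The largest falls under knockdown with IFN-γ were those of the condensin subunits Ncapg, -2.25 ± 0.049, and Ncapg2, -2.19 ± 0.061 (log2, ± SE). The largest rises under knockdown with IFN-γ were those of Nipbl, the cohesin loader, 0.45 ± 0.055, and Stag1, a cohesin subunit, 0.26 ± 0.051. The interaction was called lower for 8 of the 19 and higher for 3, against 16.5% and 14.1% of all genes, with a median of -0.04.

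Subunits of the anaphase-promoting complex, which destroys cyclin B and securin, had small differences. Of 15, 10 were lower and 1 higher under knockdown with IFN-γ (limma), against 38.7% and 35.9% of all genes. Without IFN-γ 13 were lower and 0 higher, against 38.9% and 36.3%, and the median of the 15 was -0.32 in both. The complex's Anapc11 had -1.01 ± 0.064 and Anapc5 -0.88 ± 0.038 with IFN-γ, and Anapc7 was higher by 0.10 ± 0.038. The interaction was lower for 2 and higher for 2, with a median of 0.03, where 16.5% and 14.1% of all genes were called lower and higher. Cdc20 and Ube2c, which serve the same complex, had -2.78 and -3.10 with IFN-γ.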
